A study of Mus musculus with 2 samples.

Results

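Regulator of G protein signalling (Rgs) genes were measured in resident macrophages of the mouse kidney. The 9 genes described here, Rgs1, Rgs2, Rgs3, Rgs10, Rgs12, Rgs14, Rgs16, Rgs18 and Rgs19, were listed by symbol from 48795 gene rows. Their choice was made with earlier results of these data known, so it was not blind to their values. The remaining 12 genes of the numbered family, Rgs4 to Rgs22 without these 9, serve as comparison. The 2 libraries came from wild-type C57BL/6 mice aged 8 weeks, with no treatment in the labels. One held CD11c-positive cells (R2a) and the other CD11c-negative cells (R2b), both sorted by flow cytometry from perfused, enzyme-digested kidneys. Each group was 1 library, made from the joined RNA of 6 to 8 mice. No difference therefore has a replicate check and no p-value is given. In such bulk RNA, fewer cells of a type and less RNA per cell cannot be told apart.

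Receptors coupled to heterotrimeric G proteins switch the alpha subunit to its GTP-bound state, and the released subunits then act on adenylyl cyclase, phospholipase C and other effectors. RGS proteins bind the active alpha subunit and speed the hydrolysis of its GTP, which ends the signal. The family is grouped by sequence. The small R4 proteins (here Rgs1, Rgs2, Rgs3, Rgs16 and Rgs18) consist of little more than the RGS domain, apart from long forms of Rgs3. The R12 group (Rgs10, Rgs12 and Rgs14) and the RZ group (Rgs19) act mainly on the Gi class, to which chemokine and complement receptors of macrophages couple.

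In the GRCm38 annotation of GENCODE M21, the longest coding sequences of Rgs1 and Rgs2 held 209 and 211 codons. Those of Rgs16 and Rgs18 held 201 and 235 codons. Rgs10, the smallest of the R12 group, held 181 codons, against 547 in Rgs14 and 1451 in Rgs12. Rgs19 held 243 codons and the longest form of Rgs3 966. The promoters of 6 of the 9 genes were found in a RefSeq table of windows from 250 bases before to 50 bases after each start (build GRCm38.p6). The windows of Rgs2, Rgs10, Rgs19 and Rgs16 are shown because they belong to abundant members, a member of intermediate level and a member with almost no reads. Capitals mark matches to 6 motifs, each searched on both strands. The cAMP response element (CRE) was searched as TGACGTCA, the element through which cAMP signalling reaches many promoters. The element of the Fos and Jun factors, AP-1, was searched as TGANTCA, with any base at N. The GC box, a common element of promoters rich in CpG, was searched as GGGCGG. The core promoter element known as the TATA box was searched as TATAAA. The CCAAT box was searched by the letters of its name, and a core of PU.1 sites as GAGGAAGT.
Rgs2, chr1:144004100-144004399, minus strand: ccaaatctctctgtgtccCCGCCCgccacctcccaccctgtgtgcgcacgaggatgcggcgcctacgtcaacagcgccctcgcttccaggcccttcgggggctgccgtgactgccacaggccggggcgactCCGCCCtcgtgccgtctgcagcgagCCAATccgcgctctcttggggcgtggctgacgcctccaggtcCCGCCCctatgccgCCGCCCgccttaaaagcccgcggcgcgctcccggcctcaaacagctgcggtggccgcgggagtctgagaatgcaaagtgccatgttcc
Rgs10, chr7:128418123-128418422, minus strand: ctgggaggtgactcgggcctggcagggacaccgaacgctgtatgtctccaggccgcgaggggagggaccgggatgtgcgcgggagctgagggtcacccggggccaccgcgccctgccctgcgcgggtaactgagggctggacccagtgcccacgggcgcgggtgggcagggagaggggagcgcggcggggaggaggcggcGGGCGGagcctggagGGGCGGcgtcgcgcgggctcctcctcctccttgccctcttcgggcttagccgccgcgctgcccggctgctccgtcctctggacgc
Rgs19, start 3 of 3, chr2:181693928-181694227, minus strand: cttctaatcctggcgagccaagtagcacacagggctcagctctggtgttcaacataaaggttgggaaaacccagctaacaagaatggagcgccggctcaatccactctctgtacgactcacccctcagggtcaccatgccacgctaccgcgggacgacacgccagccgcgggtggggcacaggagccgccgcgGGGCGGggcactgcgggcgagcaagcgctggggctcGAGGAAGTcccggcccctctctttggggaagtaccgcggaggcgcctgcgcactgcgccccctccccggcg
Rgs16, chr1:153740103-153740402, plus strand: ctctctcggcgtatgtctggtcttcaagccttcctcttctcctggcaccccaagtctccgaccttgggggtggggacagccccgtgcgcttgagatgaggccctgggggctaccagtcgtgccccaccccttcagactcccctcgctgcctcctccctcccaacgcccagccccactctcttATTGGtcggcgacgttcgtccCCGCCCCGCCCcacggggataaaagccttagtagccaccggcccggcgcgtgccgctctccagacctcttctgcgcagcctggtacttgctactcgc

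The 4 windows shown all held GC boxes and had CpG ratios above the median of all windows. The GC box occurred 4 times in the Rgs2 window, with 2 matches each in those of Rgs10 and Rgs16, the pair in Rgs16 overlapping by 1 base, and 1 in that of Rgs19. It was present in 35.7% of all 32851 promoter windows. The observed over expected CpG ratio was 0.922 for Rgs2, 0.803 for Rgs10, 0.811 for Rgs19 and 0.719 for Rgs16, against a median of 0.384 over all windows. The windows not shown ranged widely. The ratio was 0.942 for start 2 of Rgs19, which overlaps the window shown, and 0.658 for start 1 of Rgs12. It lay below the median for both starts of Rgs3 (0.216 and 0.352), start 1 of Rgs19 (0.189) and start 2 of Rgs12 (0.133). The PU.1 core, named for a transcription factor of the myeloid lineage, lay 21 bases before the Rgs19 start and was in 3.20% of all windows. The same motif lay 74 bases before the second annotated start of Rgs12, a gene of low level. A CCAAT box was found in the windows of Rgs2 and Rgs16 and in 37.4% of all windows. Neither CRE (1.79% of all windows) nor AP-1 (7.81%) nor TATAAA (13.6%) matched in these 4 windows. A match is a description of the letters and not a site of binding.

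Gene counts summed to 11811923 reads for R2a and to 23915896 for R2b, so counting error is wider in R2a. Levels are given as counts per 1e6 reads (CPM) after TMM scaling, which sets the libraries to a common scale from the bulk of genes. The sort marker's transcript, Itgax, stood at 367 CPM in R2a against 48.9 CPM in R2b, in the direction of the labels. All 12 macrophage markers listed passed 1 CPM and only Itgax was called, and among them was Csf1r at 2533 and 3400 CPM. Kidney RNA was present as well, since 10 proximal tubule genes summed to 2540 CPM in R2a against 2670 CPM in R2b.

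Rgs expression in both libraries was concentrated in Rgs1, Rgs2 and Rgs10, and none of the 7 members over 1 CPM differed by 2-fold. The other members, Rgs16 and Rgs18, had at most 4 reads in a library, too few to measure such a difference. Rgs1, Rgs2 and Rgs10 together took 93.2% of the reads of the 9 members in R2a (Clopper-Pearson 95% interval 92.8 to 93.6) and 92.6% in R2b (92.3 to 93.0). The summed level of the 9 was 1156 CPM in R2a against 948 CPM in R2b, a fold of 1.22 (1.19 to 1.25). A gene was called different when its log2 ratio, taken on CPM plus 0.5, was at least 1 in size, its level was at least 1 CPM in the higher library and the exact interval of its fold excluded 1. By this rule 0 of the 7 members over 1 CPM were called, and 3.77% of 15603 genes compared were called in either direction. The median log2 ratio of the 9 was 0.12, against -0.01 over all genes compared, whose quartiles were -0.20 and 0.19. Intervals here and below cover counting error only, since each group was 1 library. They treat reads as independent, so reads copied by PCR would make them too narrow.

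**Figure D1:**
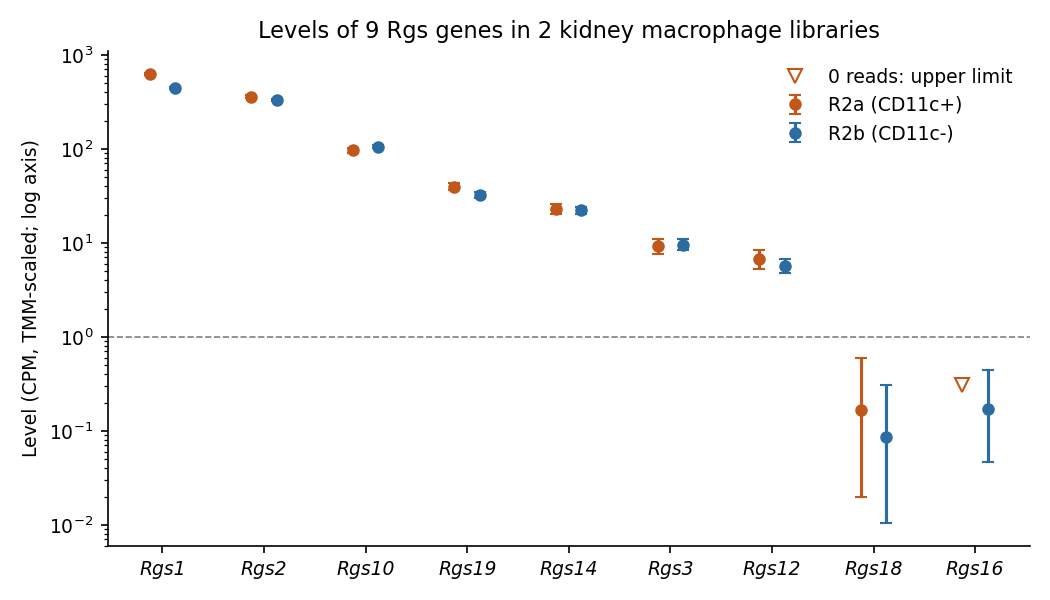
Levels of the 9 Rgs genes in CPM on a log axis, with R2a in orange and R2b in blue, bars showing exact Poisson 95% intervals, an open triangle the upper limit for 0 reads and the dashed line 1 CPM. Rgs1, Rgs2 and Rgs10 lie highest in both libraries and Rgs18 and Rgs16 lie under 1 CPM, and the paired points of each gene lie close together.

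Among the R4 members over 1 CPM, Rgs1 had the most reads and the largest difference. Rgs1 (ENSMUSG00000026358.13, GRCm38 chromosome 1, 144242296 to 144249242, minus strand) limits migration toward chemokines in lymphocytes, where it acts on the Gi and Gq classes. It had 7556 reads in R2a against 10309 in R2b, or 622 CPM and 443 CPM. Its level was thus 1.41-fold higher in the CD11c-positive library (1.36 to 1.45), short of the 2-fold rule. Of all genes compared, 8.28% had a log2 ratio at or above the 0.49 of Rgs1. Rgs1 made up 53.8% of the member reads in R2a (53.0 to 54.7) and 46.7% in R2b (46.1 to 47.4). The annotated exons of Rgs1 cover the whole gene, so its counts may include reads from introns.

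Rgs2 (ENSMUSG00000026360.9, chromosome 1, 143999338 to 144004161, minus strand) acts chiefly on Gq and is known in mice for its part in blood pressure control. It had 4359 reads in R2a against 7675 in R2b, or 359 CPM and 330 CPM. The libraries differed by 1.09-fold (1.05 to 1.13), so Rgs2 was nearly level while Rgs1 was not. The ratio of Rgs1 to Rgs2 reads does not depend on scaling, and it was 1.73 in R2a and 1.34 in R2b. The ratio in R2a was 1.29 times that in R2b (exact conditional interval 1.23 to 1.35).

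Rgs3 (ENSMUSG00000059810.18, chromosome 4, 62559847 to 62704001, plus strand) acts on Gi and Gq and has long forms with further domains. It stood at 9.23 CPM in R2a, from 112 reads, and 9.58 CPM in R2b, from 223 reads. The fold of 0.963 (0.760 to 1.21) included 1, and its direction turned under total-count scaling. Of the 75-base windows of its transcripts, 10.2% also occurred in the transcript of another annotated gene, Gm5763, so its count may be incomplete.

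The remaining R4 members were close to absent. Rgs16 (ENSMUSG00000026475.7, chromosome 1, 153740349 to 153745468, plus strand), which is induced in activated lymphocytes and acts on Gi and Gq, had 0 reads in R2a against 4 in R2b. A count of 0 in R2a allows up to 0.247 CPM at 3 counts, and R2b stood at 0.172 CPM (0.0468 to 0.440), so no difference was detectable at this depth. Rgs18 (ENSMUSG00000026357.3, chromosome 1, 144752683 to 144775435, minus strand), known from platelets and megakaryocytes, had 2 reads in each library. Both counts lie under the floor of 3 counts, so no fold is given.

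**Figure D2:**
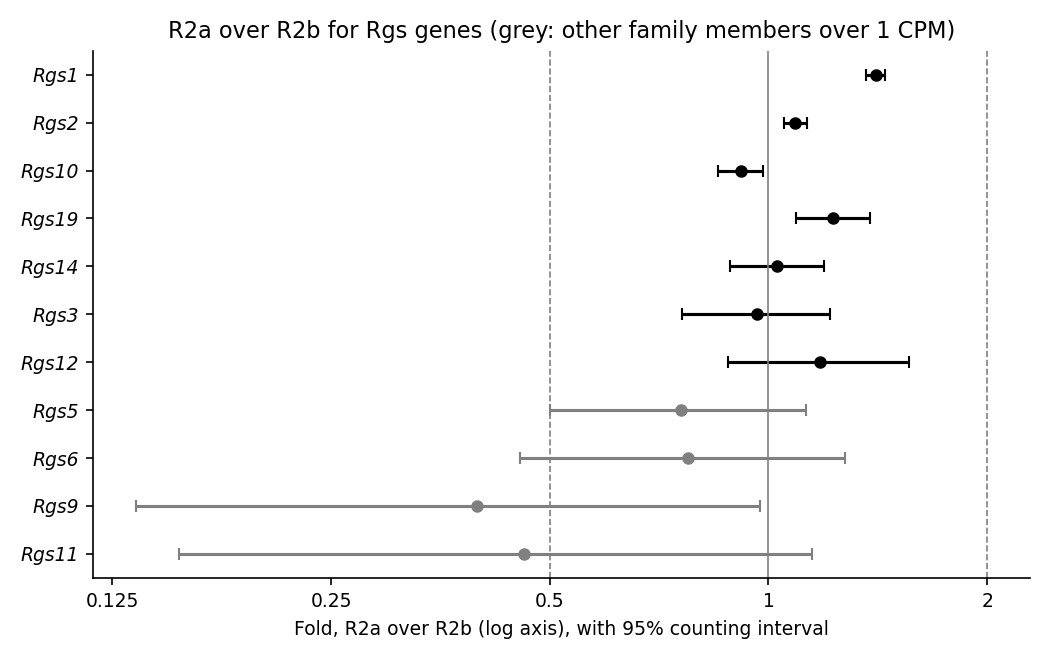
Fold of R2a over R2b on a log axis for Rgs genes, with exact Clopper-Pearson 95% intervals, members in black, other family members over 1 CPM in grey and dashed lines at 0.5 and 2. Rgs1 and Rgs19 lie to the right of 1 at 1.41 and 1.23, Rgs10 to the left at 0.915, and all 7 members lie between the dashed lines. Rgs16 and Rgs18 are left out because their reads are too few for a fold.

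The R12 group held Rgs10 at high level and its longer relatives at lower levels. Rgs10 (ENSMUSG00000030844.11, chromosome 7, 128373621 to 128418758, minus strand) acts on Gi and is known in mice to limit inflammatory activation of microglia and macrophages. It had 1168 reads in R2a against 2447 in R2b, or 96.2 CPM and 105 CPM. The fold was 0.915 (0.853 to 0.982), and under total-count scaling it was 0.966 (0.901 to 1.04), with an interval that included 1. The ratio of Rgs1 to Rgs10 reads was 6.47 in R2a and 4.21 in R2b, 1.54 times as large in R2a (1.42 to 1.66).

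Rgs14 and Rgs12 join the RGS domain to Ras-binding domains and a GoLoco motif that holds inactive Gi subunits. Rgs14 (ENSMUSG00000052087.13, chromosome 13, 55369732 to 55384687, plus strand) stood at 22.7 CPM in R2a, from 276 reads, and at 22.1 CPM in R2b, from 515 reads. Its fold of 1.03 (0.884 to 1.19) included 1. Rgs12 (ENSMUSG00000029101.14, chromosome 5, 34949445 to 35039644, plus strand) had 81 reads in R2a against 132 in R2b, or 6.67 CPM and 5.67 CPM. The fold of 1.18 (0.881 to 1.56) included 1 as well, so neither gene differed beyond counting error.

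The RZ member Rgs19 (ENSMUSG00000002458.13, chromosome 2, 181688419 to 181693977, minus strand), also called GAIP, acts on the Gi class. It had 482 reads in R2a against 753 in R2b, or 39.7 CPM and 32.4 CPM. The level was 1.23-fold higher in R2a (1.09 to 1.38). Against Rgs10, the read ratio was 0.413 in R2a and 0.308 in R2b, 1.34 times as large in R2a (1.17 to 1.54).

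The interval of the fold excluded 1 for 4 of the 7 members over 1 CPM, higher in R2a for Rgs1, Rgs2 and Rgs19 and lower for Rgs10. Among all genes compared 18.1% had such an interval higher in R2a and 18.6% lower. In either direction this held for 36.7% of all genes compared, and for 51.7% of genes with at least 1000 reads in the libraries together, as these 4 members have. An interval without 1 is thus common at this depth and is not particular to the Rgs genes. It bears on these libraries and not on the populations.

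Per kilobase of merged exons, Rgs2 led Rgs1 and Rgs10 in both libraries. In R2a, Rgs2 stood at 99.0 CPM per kilobase, Rgs1 at 89.6 and Rgs10 at 56.2, followed by Rgs19 at 17.8 and Rgs14 at 5.36. Rgs3 at 0.854 CPM per kilobase and Rgs12 at 0.786 had overlapping counting intervals (0.703 to 1.03 and 0.624 to 0.977). The order was the same in R2b, but there Rgs1 at 63.8 CPM per kilobase (62.5 to 65.0) and Rgs10 at 61.5 (59.0 to 63.9) could not be separated. In R2b the last of these above 1 CPM, Rgs3 and Rgs12, stood at 0.887 and 0.668 CPM per kilobase, and their intervals overlapped too. The annotated exons of Rgs1 merge into 1 block of 6947 bases that spans the gene, and some of its annotated transcripts retain introns. Its merged length is therefore long for a messenger RNA. If the counting used these exons, reads within its introns were counted for Rgs1 too. The share, fold and read ratios of Rgs1 carry this limit, and its size was not tested.

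With the length of the transcript that has the longest coding sequence, 3841 bases for Rgs1 and 880 bases for Rgs10, the order changed. Rgs1 then led in R2a at 162 CPM per kilobase, before Rgs2 at 119 and Rgs10 at 109. The Rgs1 value may be too high, since any intron reads in its count are divided by a length without introns. The intervals of Rgs2 (115 to 122) and Rgs10 (103 to 116) overlapped slightly. In R2b, Rgs10 at 119 CPM per kilobase (115 to 124) and Rgs1 at 115 (113 to 118) overlapped, and Rgs2 stood at 109. Which of these 3 genes led thus depended on the length used, whereas Rgs19 and the rest stayed lower under both lengths.

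**Figure D3:**
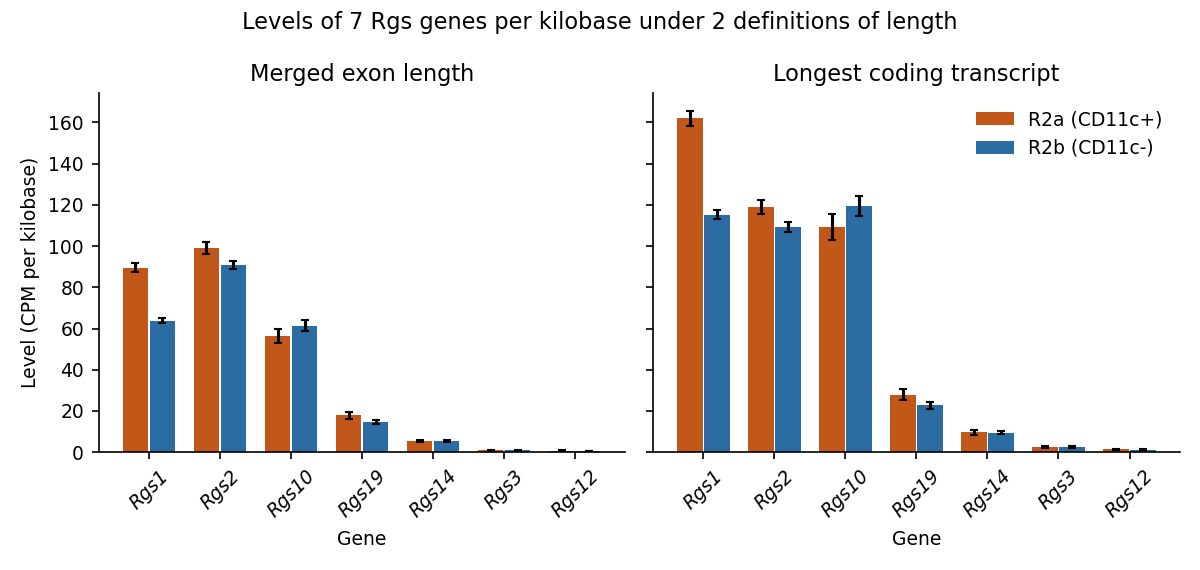
Levels of the 7 members over 1 CPM, in CPM per kilobase, by merged exon length at left and by the longest coding transcript at right, with R2a in orange, R2b in blue and Poisson 95% intervals. Rgs1 rises from 89.6 to 162 CPM per kilobase in R2a with the change of length, and Rgs19, Rgs14, Rgs3 and Rgs12 stay below the leading 3.

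Neighbouring Rgs genes on chromosome 1 differed widely in level. Rgs2, Rgs13, Rgs1, Rgs21 and Rgs18 lie in this order on the minus strand within 776 kilobases of chromosome 1, and these 5 are the protein-coding genes of that stretch. Rgs2 and Rgs1 were the members with the most reads, whereas Rgs13, which lies between them, and Rgs21, between Rgs1 and Rgs18, had 0 reads in either library. Rgs18, at the end of the stretch, had 2 reads in each. The other 3 annotated genes in the stretch, 2 pseudogenes and 1 snRNA, also had 0 reads.

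**Figure D4:**
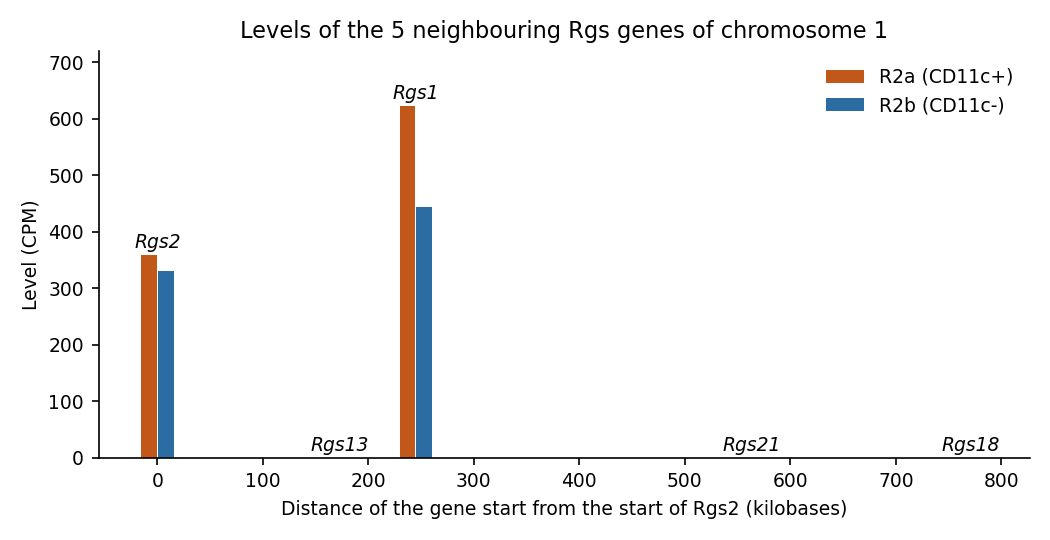
Levels in CPM of the 5 neighbouring Rgs genes by the distance of each gene start from that of Rgs2, in kilobases, with R2a in orange and R2b in blue. Only Rgs2 at 359 and 330 CPM and Rgs1 at 622 and 443 CPM have visible bars, and Rgs13, Rgs21 and Rgs18 lie at or near 0.

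The other 12 Rgs genes were rare or unread, though the 9 members had been chosen with earlier results of these data known. Rgs8, Rgs13, Rgs21 and Rgs22 had 0 reads in both libraries, and Rgs4, Rgs7, Rgs17 and Rgs20 had at most 6. All 21 Rgs genes together had 14112 reads in R2a, of which 14036 lay on the 9 members, and 22269 in R2b, of which 22060 did. Rgs5, a pericyte gene of the R4 group, stood at 2.97 CPM in R2a against 3.91 CPM in R2b, a fold of 0.758 (0.501 to 1.13). Rgs6, Rgs9 and Rgs11 belong to the R7 group, known from neurons and photoreceptors, and stood between 0.494 and 2.45 CPM. Rgs9 had 6 reads in R2a against 29 in R2b, a fold of 0.397 (0.135 to 0.972) with a log2 ratio of -0.81. The 4 genes over 1 CPM among the 12 all had log2 ratios below 0, and 0 of 4 were called. Rgs9 and Rgs11 passed 1 CPM only through R2b, at 1.25 and 1.07 CPM, so the filter fixed the direction of their ratios. The intervals of Rgs6 and Rgs11 included 1, like that of Rgs5. The shared direction is therefore no result about the family.

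Markers of other cells that use RGS genes are given as summed CPM. The sums are not set against the levels of the members, because levels of different genes compare only per length. The 12 T and NK cell markers summed to 128 CPM in R2a against 161 CPM in R2b, of which Cd4, also made by macrophages, gave 124 and 154. The T cell receptor component Cd3e, the called member of that list, stood at 0.330 and 1.46 CPM. The 8 B cell markers summed to 37.0 and 47.4 CPM, with Cd79b giving 27.4 and 32.0. The B lineage factor Pax5 was called lower in R2a at 0.247 and 1.07 CPM. Pax5 and Cd3e passed 1 CPM only through R2b, so the filter fixed the direction of their ratios. Both lists had 0 calls with an added value of 2 CPM and with a minimum of 5 CPM. Of the 10 platelet and megakaryocyte markers, Gp1bb and Gp5 were among those with 0 reads in both libraries, and the sums were 16.5 and 43.9 CPM. Pf4 gave 10.3 and 38.5 CPM of these and was called lower in R2a. The others over 1 CPM had ratios above 0 and were not called, with Gp9 at 2.39 and 1.76 CPM and Gp1ba at 2.97 and 2.02 CPM. Of 6 mast cell markers, all but Kit had 0 reads in both libraries. The 10 pericyte and smooth muscle markers summed to 42.9 and 44.5 CPM, and 0 were called.

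Lists of other sorted or kidney cells held calls in both directions. The 10 neutrophil markers summed to 61.0 CPM in R2a and 64.8 in R2b, of which Csf3r gave 60.4 and 59.4. Ly6g and Mmp8 had 0 reads, and Mmp9 was called lower in R2a. Mmp9 passed 1 CPM only through R2b, so the filter fixed the direction of its ratio. The 10 dendritic cell markers summed to 138 and 84.5 CPM, with Dpp4 and Xcr1 called higher and Siglech lower in R2a. Of the 9 over 1 CPM, 5 had log2 ratios above 0 and 4 below. The 10 endothelial markers summed to 69.2 and 50.9 CPM, with Cldn5 called higher. Their log2 ratios were above 0 for 6 and below 0 for 4, the lowest at -0.83. The 7 podocyte markers summed to 810 and 821 CPM, with Wt1 among those called higher, and 4 had ratios above 0 and 3 below. The dendritic cell and endothelial sums thus stood higher in R2a, as did Rgs1 and Rgs19, and their part in those levels was not tested.

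The alpha subunits on which RGS proteins act were present in both libraries, with log2 ratios from -0.24 to 0.49 among those over 1 CPM. Of 13 alpha subunit genes 11 were over 1 CPM and 0 were called. Over all genes compared 3.77% were called, so 0 calls in short lists, here and below, are near that share and no result about them. The median log2 ratio of the alpha subunits was -0.04, and it was 0.04 under total-count scaling. Gnai2, the main Gi subunit of leukocytes, stood at 403 CPM in R2a against 464 CPM in R2b, 0.868-fold (0.839 to 0.898). Gna12, an alpha subunit of the class it shares with Gna13, stood at 174 and 206 CPM, 0.845-fold (0.802 to 0.889). Gna11, of the Gq class, had a fold of 0.848 (0.732 to 0.979). The stimulatory subunit gene Gnas stood at 9.56 and 7.95 CPM, 1.20-fold (0.945 to 1.52). Of its 75-base windows 17.1% occurred in overlapping or other annotated transcripts, so its count may be incomplete.

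Among beta and gamma subunits 0 of 9 over 1 CPM were called, again near the share of 3.77% over all genes compared. Their median log2 ratio was -0.11, and it was -0.03 under total-count scaling. Gnb1, an abundant beta subunit, stood at 246 and 256 CPM, 0.961-fold. Among those at 5 CPM or more, the log2 ratios farthest from 0 were -0.16 for Gng5, -0.09 for Gnb2 and -0.07 for Gng12. At lower levels, Gng7 stood at 1.48 and 3.01 CPM, 0.493-fold (0.276 to 0.837), and Gnb3 at 1.32 and 2.54 CPM, 0.520-fold (0.279 to 0.916).

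Proteins that carry an RGS-like domain outside the numbered family showed one of the larger ratios. Of 14 such genes 13 were over 1 CPM and 0 were called, with a median log2 ratio of -0.09. Grk3, a kinase that phosphorylates active receptors, had 2875 reads in R2a against 3430 in R2b, or 237 CPM and 147 CPM, 1.61-fold higher in R2a (1.53 to 1.69). Its closest relative Grk2 stood at 236 and 258 CPM. Snx25, a sorting nexin, was at 16.1 and 23.8 CPM, 0.675-fold (0.570 to 0.796). The fold was 1.21 for the anchoring protein gene Akap10 and 1.18 for Arhgef1, a guanine nucleotide exchange factor regulated by Gna12 and Gna13. The beta-arrestins Arrb1 and Arrb2, which bind phosphorylated receptors, had folds of 0.949 and 1.06.

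Chaperones and GoLoco proteins had 0 of 6 called and a median of -0.08. Ric8a, a chaperone of alpha subunits, stood at 45.1 and 59.6 CPM, 0.756-fold (0.683 to 0.835), and its relative Ric8b at 0.853-fold. Rap1gap had a fold of 1.25 and Gpsm3, a GoLoco protein of leukocytes, 0.941 (0.803 to 1.10).

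**Figure D5:**
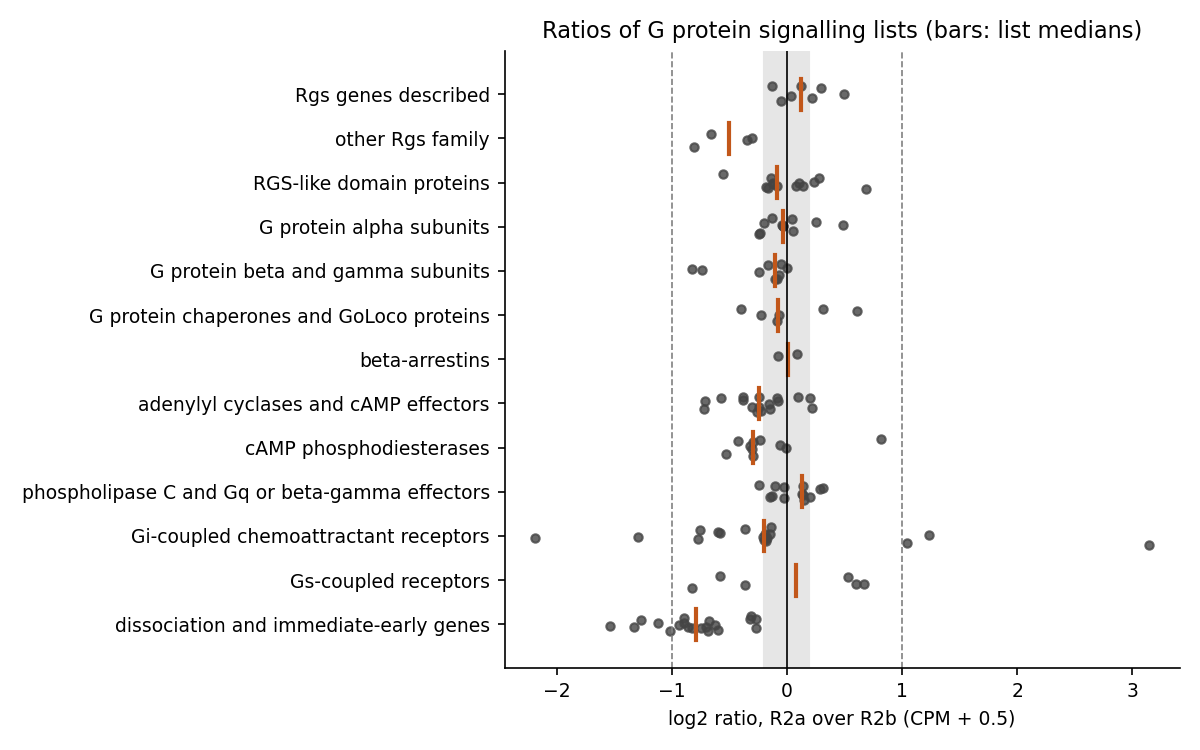
Log2 ratio of R2a over R2b for each gene over 1 CPM in lists of G protein signalling, with orange bars at list medians, dashed lines at the 2-fold rule and grey shading between the quartiles of all genes compared. The Rgs genes described have a median of 0.12, the cAMP phosphodiesterases -0.30 and the immediate-early genes -0.79, and points beyond the dashed lines belong to chemoattractant receptors and immediate-early genes.

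Effectors on the cAMP side had ratios mostly below 0 and no calls. Of 20 genes for adenylyl cyclases and cAMP effectors 17 were over 1 CPM, 14 had log2 ratios below 0 and the median was -0.24. Adcy4, a cyclase, stood at 5.44 and 9.28 CPM, 0.586-fold (0.438 to 0.775). Crem, a cAMP-responsive transcription factor, stood at 20.2 and 33.3 CPM, 0.605-fold (0.522 to 0.700). The cAMP sensor Rapgef3 had a fold of 0.659 and the regulatory subunit Prkar2b one of 0.748 (0.548 to 1.01).

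Among 10 cAMP phosphodiesterases, which degrade cAMP, 9 had log2 ratios below 0 and 0 were called, with a median of -0.30. Pde3b stood at 138 CPM in R2a against 200.3 CPM in R2b, 0.690-fold (0.652 to 0.730). Pde4b stood at 137 and 184 CPM, 0.744-fold (0.703 to 0.788), and Pde4d and Pde4c had folds of 0.789 and 0.798. The exception was Pde3a at low level, with 2.88 and 1.42 CPM, a fold of 2.03 (1.23 to 3.38) and a log2 ratio of 0.82 after the added value. Over all genes compared, 7674 ratios lay above 0 and 7929 below.

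Effectors of Gq and of beta-gamma subunits had 0 of 13 called and a median of 0.13. Prkcb, a protein kinase C, stood at 339 and 273 CPM, 1.24-fold higher in R2a (1.19 to 1.29). Plcb2, the leukocyte phospholipase C beta, had a fold of 1.22 (1.14 to 1.30), Prkcd one of 1.15 and Plcb1 one of 0.840 (0.672 to 1.04).

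Calls within the pathway were found among the receptors. Of 17 chemoattractant and related receptors, not all of which couple to Gi, 3 were called higher in R2a and 2 lower. Over the whole table the shares called were 1.93% and 1.84%. Ccr2 was 8.98-fold higher, and Ccr1 stood at 8.24 CPM in R2a against 39.3 CPM in R2b. P2ry14, a receptor for UDP-sugars, was 2.41-fold higher (2.03 to 2.87) and Cxcr3 2.20-fold higher (1.64 to 2.95). The formyl peptide receptor Fpr1 was lower, at 1.73 and 4.98 CPM. The 7 receptors coupled to Gs had 0 calls among the 6 over 1 CPM. Adrb1, a beta-adrenergic receptor, stood at 95.5 and 62.9 CPM, 1.52-fold (1.40 to 1.64). The prostaglandin receptor Ptger4 had a fold of 0.774.

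Rgs1, Rgs2 and Rgs16 are known to be induced quickly in stimulated leukocytes. In a list of 20 dissociation and immediate-early genes all 20 had log2 ratios below 0, and 5 were called lower in R2a (Fosl2, Fosb, Egr2, Klf2 and Fos), with a median of -0.79. Over all 15603 genes compared, 1.84% were called lower in R2a and 7929 had ratios below 0. The list was chosen with earlier results of these data known. Fos stood at 1079 CPM in R2a against 2190 CPM in R2b, 0.493-fold (0.483 to 0.502), and the ratio nearest to 0 in the list was -0.27. Rgs1 at 0.49 and Rgs2 at 0.12 thus stood on the other side of 0 from every gene of that list in these libraries. Rgs16, with 0 reads in R2a and 4 in R2b, gave no measurable difference. The part of these genes' program in the Rgs levels was not tested.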

How the data were processed

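RNA of 2 sorted kidney macrophage populations was sequenced with paired reads of 75 bases after ribosomal RNA reduction, per the labels' protocols. The deposited values are whole-number counts of reads per gene, which the authors made with bcl2fastq 2.18.0.12, STAR 2.5.3 on GRCm38 and HTSeq 0.9.1, per the submitters' processing notes. The annotation release and the strand setting were not given in the sources used here. Without them, reads of a gene and an antisense partner cannot be told apart. Rgs12 and Rgs16 have annotated antisense genes that share exon bases, and these had 0 reads. Reads with several alignments were held in a summary row outside the gene counts. None of the 75-base transcript windows of Rgs1, Rgs2, Rgs10, Rgs14, Rgs18 and Rgs19 occurred in another gene.

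The 5 summary rows, which held 52.1% of all rows' reads in R2a and 49.7% in R2b, stayed out of library sizes. Of 48795 gene IDs, 48435 matched GENCODE M21 without their version. Counts were scaled by TMM (edgeR 4.0.16, R 4.3.3). Folds are CPM ratios with exact Clopper-Pearson 95% intervals on the split of a gene's reads (scipy 1.17.1), and counts have exact Poisson intervals. The calls were tested on simulated data with 200 changed genes. Lists held 24 groups and 263 entries. All 21 Rgs genes were named, with up to 4 members of each signalling list at 5 CPM or more with the largest ratios and every called member. Further genes (Grk2, Csf1r, Pde3a, Gng7, Gnb3 and single markers) were chosen after their values were seen. The members and lists were chosen with earlier results of these data known. A planned comparison of protein sequences was not made, and some listed genes are not reported here. Alternatives were other scalings, added values, CPM minima and fold rules.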

Additional observations from a re-analysis of the deposited data

How the results depend on the processing

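No member was called under any of the 10 alternatives, in either direction. The 4-fold rule, the minimum of 5 CPM and the added value of 2 CPM could only remove calls, so their outcome for the members was fixed. The main rule called 3.77% of all genes compared, so 0 calls among so few members is near that share and no result about them. Calls over all genes numbered 301 higher in R2a and 287 lower, against 377 and 240 under total-count scaling and 436 and 399 with TMM on protein-coding genes. They became 493 and 462 when 0.1 CPM was added before the log, and 82 and 78 with 2 CPM. They became 92 and 97 with a minimum of 5 CPM. Asking for 1.5-fold gave 869 and 903, and asking for 4-fold left 41 and 16, by construction. The median log2 ratio of the 9 members, 0.12, was 0.20 under total-count scaling and 0.054 with an added value of 2 CPM. Both of these medians were the ratio of Rgs18, whose reads lie under the floor, so the fall to 0.054 is no result about the members. Rgs2, whose ratio was the median in the main setting, stood at 0.20 and 0.12 under these 2 alternatives. Rgs3 alone changed sign, from -0.05 to 0.02, under total-count scaling. Rgs1 ranged from 0.49 to 0.57 on the log2 scale over scalings and added values. By level per kilobase in R2a, Rgs1 took rank 2 by merged exons and rank 1 by the longest coding transcript, a length chosen after seeing the data. Depth limits Rgs16 and Rgs18, for which no difference was detectable. No paired analysis was possible because each group had 1 library.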
